A study of Mus musculus with 7 samples.

Results

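The heparan sulfate synthesis enzymes examined here are 9 genes, Glce, Ext1, Ext2, Extl2, Extl3, Ndst1, Ndst2, Hs2st1 and Hs6st1, out of 16593 genes named in the array's annotation. They were read on the probes that the platform annotation gives these symbols. Of the 9, 7 had at least 1 probe, with 11 probes in all. Ndst1 and Ndst2, which have no probe under their symbols in the annotation used here, were not analysed. Glce was chosen by its difference between Dusp8-deficient and control mice in an earlier look at these arrays, and the other 8 were picked from its pathway to see whether Glce stands alone. The comparison between the groups is therefore given as a description of the members.

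The samples were arcuate nucleus, the hypothalamic region that holds the Npy and Pomc neurons controlling feeding, from male C57BL/6J mice aged 40 weeks. All had been fed for 30 weeks on a high-fat diet (45% of energy as fat), which began at an age of 8 to 10 weeks. The 4 Dusp8-deficient mice and the 3 wild-type controls were littermates, and the design asked what loss of Dusp8, a phosphatase of mitogen-activated protein kinases such as Jnk, changes in this tissue. The sources used here do not name the allele behind the deficiency or the cells in which it acts. Each animal gave 1 Illumina bead array, named by its column heading (ko_108, ko_125, ko_148 and ko_168 for Dusp8-deficient mice, wt_136, wt_145 and wt_177 for controls).

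Heparan sulfate is a sugar chain carried by core proteins of the cell surface and matrix. Ext1 and Ext2 together build its backbone of alternating glucuronic acid and N-acetylglucosamine, Ndst enzymes replace acetyl by sulfate groups, Glce flips glucuronic acid into iduronic acid, and Hs2st1 and Hs6st1 add further sulfates. The resulting pattern sets which growth factors and guidance proteins the chain can bind. In the hypothalamus, the heparan sulfate-bearing syndecan Sdc3 is known to take part in the melanocortin control of feeding.

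Glce and Hs6st1 were the members whose groups lay apart, in opposite directions, so the 250 bases upstream of their annotated start sites are shown. The sequences are those of RefSeq on GRCm38.p6, at chr9:62122610-62122859 on the minus strand for Glce and at chr1:36068150-36068399 on the plus strand for Hs6st1, written 5' to 3' on the strand of the gene. Capitals mark GC boxes, the letters GGGCGG on either strand, which bind Sp-family factors.
Glce: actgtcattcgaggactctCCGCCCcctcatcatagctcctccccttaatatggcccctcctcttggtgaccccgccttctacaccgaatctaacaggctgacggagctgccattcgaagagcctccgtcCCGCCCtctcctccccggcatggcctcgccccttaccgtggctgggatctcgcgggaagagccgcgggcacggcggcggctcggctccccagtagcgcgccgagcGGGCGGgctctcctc
Hs6st1: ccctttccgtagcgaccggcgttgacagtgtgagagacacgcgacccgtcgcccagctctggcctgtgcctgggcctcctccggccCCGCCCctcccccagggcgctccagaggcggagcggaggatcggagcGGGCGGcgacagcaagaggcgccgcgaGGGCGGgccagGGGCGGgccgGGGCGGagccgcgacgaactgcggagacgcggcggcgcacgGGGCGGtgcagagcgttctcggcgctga
The Glce window held 3 GC boxes and the Hs6st1 window 6, and 32.7% of all 32851 promoter windows in the table held at least 1. Of the 7 windows counted for the members, 5 held at least 1, including those of Ndst2 (3) and Hs2st1 (1). The share of G and C was 67.2% for Glce and 76.4% for Hs6st1, against a median of 52.4% over all windows. It ran from 51.6% to 68.8% in the other windows counted for the members. Neither the Glce nor the Hs6st1 window held the AP-1 letters TGANTCA, read by Jun, the target of Jnk, on either strand. Of all windows 6.75% did. Neither held the E-box CACGTG (6.02% of all windows) or the TATA box TATAAA (12.4%). Windows were found for 6 of the 9 members.

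Array quality was compared first. Of 25697 probes, 12295 to 13976 were detected per array (detection p below 0.05), and the mean signal was 58.0 to 74.9 units, lowest in ko_108. The groups were not separated by an exact two-sided permutation test on the number detected (p = 0.229) or on mean signal (p = 0.543), and 4 against 3 arrays allow no p below 0.0286. Dusp8 itself gave signals of 77 to 104 units in the deficient mice and of 540 to 624 in controls, 5.72-fold lower (limma, adjusted p = 0.00963), and was the only call among 14067 tested probes (0.00711%). That call was lost without any 1 of ko_148, ko_168, wt_136, wt_145 and wt_177, with adjusted p-values from limma of 0.0560 to 0.111. Of 9 arcuate markers 8 had a probe and all 8 were tested, while Agrp had none in the annotation used here. Array ko_108 stood apart, with a summed arcuate marker signal of 1594 units against 3405 to 4703 in the other 6 arrays and a summed oligodendrocyte marker signal of 3669 against 1270 to 2210.

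Glce, the epimerase that makes the chain flexible and opens it to the later sulfation steps, was lower in every Dusp8-deficient array than in any control. It is read by 1 probe, ILMN_2750543, and lies on chromosome 9. The deposited signal was 19 units in ko_108, 30 in ko_125, 27 in ko_148 and 18 in ko_168. In the controls it was 80 units in wt_136, 72 in wt_145 and 44 in wt_177. The probe was detected on all 7 arrays, where the lowest detected signal of an array was 6 to 8 units. So the Dusp8-deficient values were low but measured, and the dimmest control still lay above the brightest of them.

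After normalisation the Glce level was 5.26 ± 0.06 (SD, n = 4) in the Dusp8-deficient arrays and 6.35 ± 0.26 (SD, n = 3) in the controls, on the log2 scale with an offset of 16. The 4 Dusp8-deficient arrays spanned 5.20 to 5.33, while the controls were 6.52, 6.49 and 6.05, with wt_177 the lowest. The difference was -1.09 log2 units (SE 0.20, 95% interval -1.53 to -0.65), a 2.13-fold lower level. With an offset of 50 it was -0.68, and without wt_177 it was -1.25. In the processed table deposited by the authors, Glce read 35 to 38 units in the Dusp8-deficient samples and 64 to 89 in the controls. In tissue of mixed cells, fewer cells that express Glce and less Glce RNA per cell cannot be told apart.

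The pooled SD of Glce within groups was 0.17 log2 units, at percentile 10.6 of all tested probes. This value comes from the same arrays on which Glce was chosen, and is a description. Hs6st1 had a similar SD of 0.17, at percentile 9.87. Among the brightest probes of the members, Hs2st1 was at the other end, with 0.61 at percentile 91.0. A dimmer Extl3 probe, ILMN_2708169, had 0.63 at percentile 92.6.

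**Figure D1:**
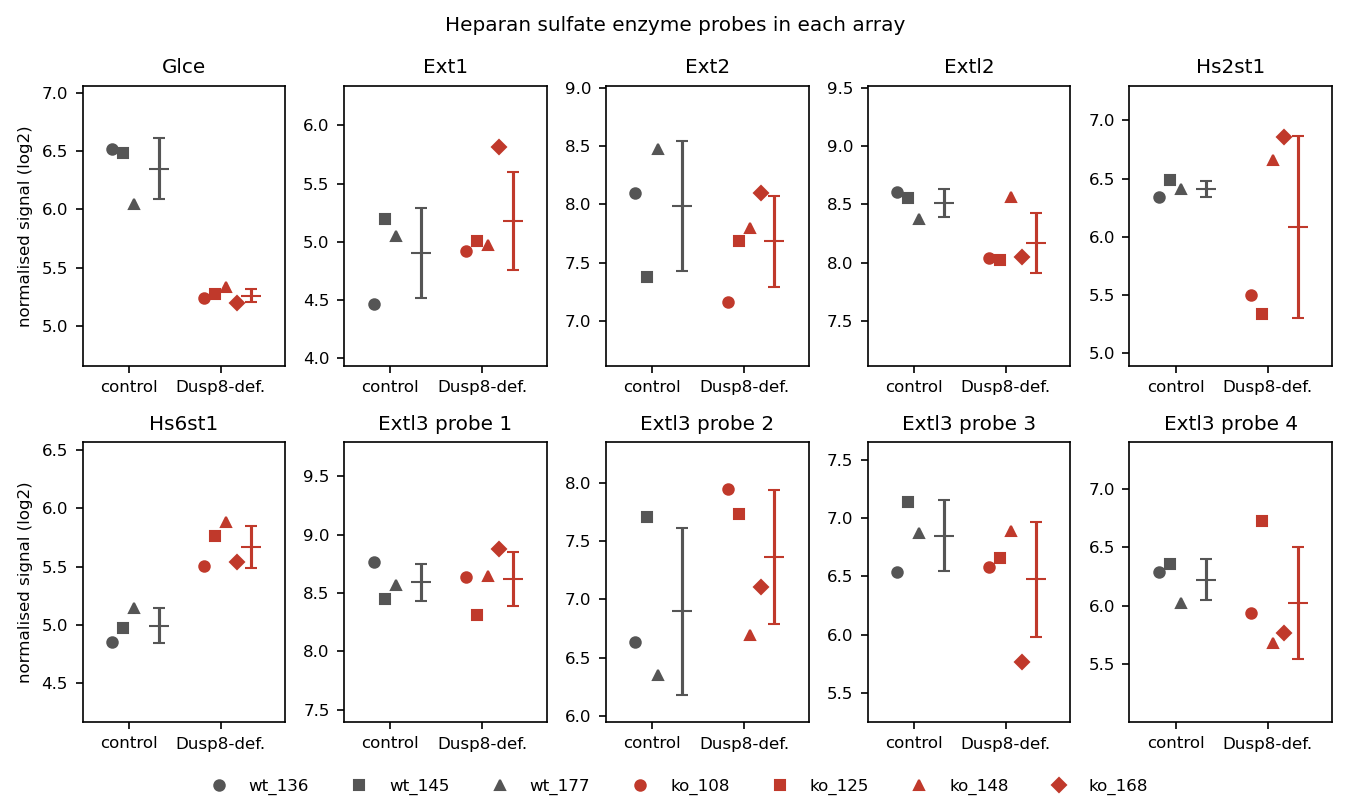
Normalised log2 signal of the 10 tested probes of the members in each array, with controls in grey and Dusp8-deficient mice in red, and the group mean with its SD as a bar beside the points. All panels span an equal range. Glce is lower and Hs6st1 higher in every Dusp8-deficient array, and the groups overlap for the other 8 probes.

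Hs6st1, which adds sulfate at the 6-O position of glucosamine, differed in the opposite direction. Its brighter probe, ILMN_3158500, read 26 units in ko_108, 48 in ko_125, 47 in ko_148 and 27 in ko_168. In the controls it read 14 units in wt_136, 15 in wt_145 and 17 in wt_177. Every Dusp8-deficient array thus lay above every control, although all values were dim.

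The normalised Hs6st1 level was 5.67 ± 0.18 (SD, n = 4) against 4.99 ± 0.15 (SD, n = 3). The difference was 0.68 log2 units (SE 0.20, 95% interval 0.24 to 1.12), a 1.60-fold higher level, and did not pass over all tested probes (limma, adjusted p = 0.996). It was 0.37 with an offset of 50. A second Hs6st1 probe, ILMN_3079255, read only 3 to 8 units in Dusp8-deficient mice and 3 to 5 in controls and was detected in 2 of 4 and 0 of 3, too few to be tested, so it gives no second reading of the gene.

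Over all tested probes the groups lay apart, with no overlap, in 5.57% (2.79% lower and 2.78% higher in Dusp8-deficient mice). Among the members this held for 2 of the 10 tested probes, Glce and Hs6st1, but Glce was picked for its difference, so the share cannot be read as a result. Of the 9 probes other than that of Glce, none passed the threshold of 0.05 after adjustment, beside 0.00711% of all tested probes. Of these 9, 1 had an unadjusted p below 0.05, that of Hs6st1, beside 4.81% of all tested probes.

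Before normalisation, the summed signal of the 5 astrocyte markers lay apart between the groups, at 2610 to 2848 units for Dusp8-deficient mice and 2307 to 2527 for controls. Of these markers 4 were higher and 1 lower, and none of them lay apart on its own. Of the 8 arcuate neuron markers, 7 were lower and 1 higher in Dusp8-deficient mice, and their summed signals overlapped, at 1594 to 4311 and 3405 to 4703 units. The sums of the remaining 9 marker lists overlapped as well. The part of the astrocyte and arcuate signals in the Glce and Hs6st1 differences was not tested.

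The enzymes that start and build the chain gave no common direction. Ext1, 1 of the pair that polymerises the backbone, read 12 units in ko_108, 22 in ko_125, 17 in ko_148 and 36 in ko_168, against 6, 20 and 15 in wt_136, wt_145 and wt_177. These ranges overlapped, and the probe was detected in 2 of 3 controls. The difference was 0.28 log2 units (SE 0.28, 95% interval -0.36 to 0.91), and 0.056 without wt_136 or 0.070 without ko_168.

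Ext2, its partner in the polymerase, read 107, 210, 231 and 275 units in ko_108, ko_125, ko_148 and ko_168 and 271, 149 and 300 in the controls in the order above. Array ko_108 was the lowest of all. The difference was -0.30 log2 units (SE 0.31, 95% interval -0.99 to 0.39), and -0.12 without ko_108, -0.056 without wt_177 or -0.61 without wt_145. Ext1 and Ext2 had differences of opposite sign, and each was close to 0 without 1 of the arrays named.

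Extl2, a related transferase that can add N-acetylglucosamine to the linker, read 208, 262, 399 and 263 units in the Dusp8-deficient arrays and 395, 350 and 277 in the controls. Of the Dusp8-deficient arrays 3 lay below every control, while ko_148 was level with the brightest. The difference was -0.34 log2 units (SE 0.21, 95% interval -0.81 to 0.13), and ran from -0.48 to -0.30 with any 1 array left out.

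Extl3, which adds the sugar that starts the chain, was read by 4 probes that did not point the same way. The brightest, ILMN_1239857, read between 320 and 509 units in Dusp8-deficient mice and 318 to 441 in controls, a difference of 0.03 log2 units (SE 0.21, 95% interval -0.44 to 0.49) whose sign turned with array weights and without ko_168 or wt_145. The other probes read 0.47 (SE 0.39), -0.38 (SE 0.29) and -0.20 (SE 0.27) log2 units. They came to 0.20 without wt_177, -0.14 without ko_168 and -0.081 without ko_148, in this order. Their groups all overlapped. With 4 probes, Extl3 was the member with the most readings, and they leave its direction unsettled.

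Hs2st1, which sulfates the iduronic acid that Glce makes, was the most uneven member on the brightest probe of each gene. It read 26 units in ko_108 and 32 in ko_125, but 94 in ko_148 and 98 in ko_168. The controls read 69, 72 and 60 units and lay between these pairs. On the log2 scale the level was 6.09 ± 0.78 (SD, n = 4) in the Dusp8-deficient arrays and 6.41 ± 0.07 (SD, n = 3) in the controls. The difference of -0.33 log2 units (SE 0.37, 95% interval -1.16 to 0.51) came to -0.13 without ko_108, -0.070 without ko_125 and -0.58 without ko_168. Glce itself did not split in this way, since its 4 Dusp8-deficient levels lay within 5.20 to 5.33.

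Of the 6 other members tested, 3 were higher and 3 lower on their brightest probes, while 49.7% of all tested probes were higher, with a median difference of -0.14 log2 units, beside 0.00 over all tested probes. With any 1 array left out, that median ran from -0.18 to 0.03, and over the other settings from -0.30 to -0.07. The adjusted p was 0.996 for each of the 9 probes (limma, Benjamini-Hochberg over all tested probes). A failed test does not show equal levels, and 5 of these 9 probes had an interval that stayed inside a 2-fold change.

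**Figure D2:**
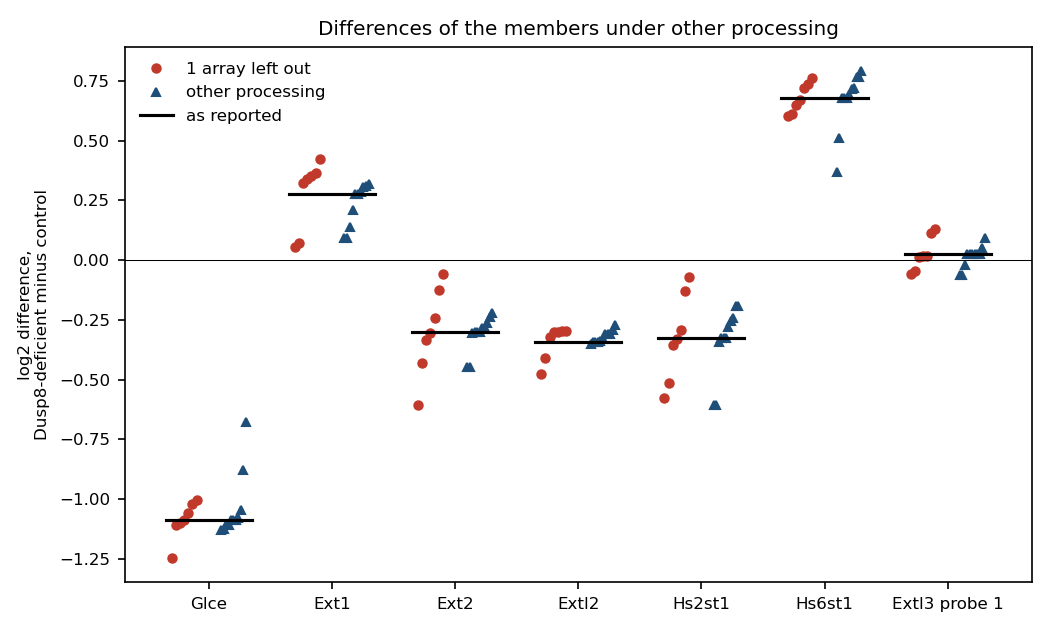
Log2 difference (Dusp8-deficient minus control) of the brightest probe of each measured member under 7 fits with 1 array left out (red circles) and under up to 11 other settings (blue triangles), with the reported value as a black line. Glce stays between -1.25 and -0.68 and Hs6st1 between 0.37 and 0.79, while the brightest Extl3 probe crosses 0.

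The wider pathway was followed through 102 further genes, picked by role, of which 91 had a probe and 71 were tested. Of the 71, 42 were higher and 29 lower in Dusp8-deficient mice, with a median of 0.02 log2 units. The 42 include Chst3, which was not detected in any control. None passed (limma, over all tested probes). On the brightest probe none had an unadjusted p below 0.05, against 4.81% of all tested probes, and none had groups that lay apart, against 5.57%. Among dimmer probes, ILMN_2736497 of Fgf10 had an unadjusted p of 0.0216 (limma, adjusted p = 0.996). The groups of ILMN_2719860 of Gpc5 lay apart, at -0.47 log2 units, while its other probes read 0.02 and 0.40.

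Genes for the linker, the short sugar stem on which the chain is built, split into 2 higher and 2 lower among 4 tested. B3gat3, which completes the stem with glucuronic acid, read 25 to 46 units against 9 to 26 in the controls, or 0.45 log2 units (SE 0.27), with a dimmer probe at 0.04. That difference was 0.24 without wt_177 and 0.28 without ko_108. B3galt6, a galactosyltransferase, read -0.22 (SE 0.25), between -0.38 without ko_168 and -0.094 without wt_177. Fam20b, the kinase that phosphorylates the xylose of the stem, read 50 to 251 units against 119 to 196, or -0.21 (SE 0.41), and 0.18 without ko_168. Xylt1 and B4galt7 were not detected in enough arrays to be tested.

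Among the sulfation enzymes beside the members, Ndst4 was the only tested member of its family of N-deacetylase/N-sulfotransferases. It read 54 units in ko_108 and 15 to 22 in the other Dusp8-deficient arrays, against 2 to 20 in the controls, and its difference of 0.60 log2 units (SE 0.35) was 0.28 without ko_108. Ndst3 was not detected on any array. Hs3st3a1, which adds the rare 3-O sulfate, read 10 to 33 units against 33 to 38, a difference of -0.43 log2 units (SE 0.24, 95% interval -0.98 to 0.11), and -0.27 without ko_108. Hs6st2, a paralogue of Hs6st1 with the same reaction, read 16 to 67 units against 16 to 47, so the 2 groups overlapped widely there.

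Sulf1, which removes 6-O sulfate outside the cell, read between 53 and 187 units in Dusp8-deficient mice and 44 to 141 in controls. Heparanase genes Hpse and Hpse2 were not detected on any array. Of 6 tested genes of lysosomal breakdown, 2 were higher and 4 lower. They included Ids, the sulfatase that acts on the iduronic acid made by Glce, at -0.18 log2 units (SE 0.22), with 2 dimmer probes at 0.19 and 0.33, and Naglu at -0.23 (SE 0.28). Ids came to -0.037 without ko_168. Naglu lay between -0.49 without wt_177 and -0.011 without wt_136.

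Supply of the sulfate donor gave 1 higher and 4 lower among 5 tested genes. Papss1, which makes the donor, read 126 to 262 units against 163 to 188 in the controls. Bpnt1, which clears the spent donor, read 91 to 136 units against 123 to 208, or -0.38 log2 units (SE 0.23), with another probe at -0.03, and was -0.17 without wt_145. Of 6 tested genes of UDP-sugar supply, 4 were higher and 2 lower. Ugp2, which makes UDP-glucose, read 0.35 (SE 0.27), and Slc35a3, a Golgi carrier of UDP-N-acetylglucosamine, read -0.44 (SE 0.26). Ugp2 was 0.17 without wt_145 and 0.54 without wt_136, and Slc35a3 -0.25 without wt_177.

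Core proteins were higher in 9 and lower in 3 of 12 tested cases, with a median of 0.06 log2 units that ran from -0.0065 to 0.22 with 1 array left out. Sdc3, the syndecan with the known role in feeding, read 1104 to 1441 units in Dusp8-deficient mice and 1138 to 1277 in controls. The control range lay inside that of the Dusp8-deficient arrays. Agrn, the matrix proteoglycan agrin, read 647 to 1125 against 764 to 1000 units.

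The glypicans Gpc3 and Gpc4, anchored to the membrane by a lipid, were lowest in array ko_108 on their brightest probes. Gpc3 read 91 units there and 312 to 589 in the other Dusp8-deficient arrays, against 263 to 591 in the controls. Gpc4 read 0 units in ko_108 and 21 to 72 in the rest. Their differences of -0.44 (SE 0.48) and -0.43 (SE 0.42) log2 units were 0.03 and -0.05 without ko_108. A dimmer Gpc3 probe, ILMN_2719973, was low in ko_168 as well. It read 4 units in ko_108, 49 in ko_125, 27 in ko_148 and 3 in ko_168, against 16 to 38 in the controls. Its difference was -0.39 (SE 0.35).

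**Figure D3:**
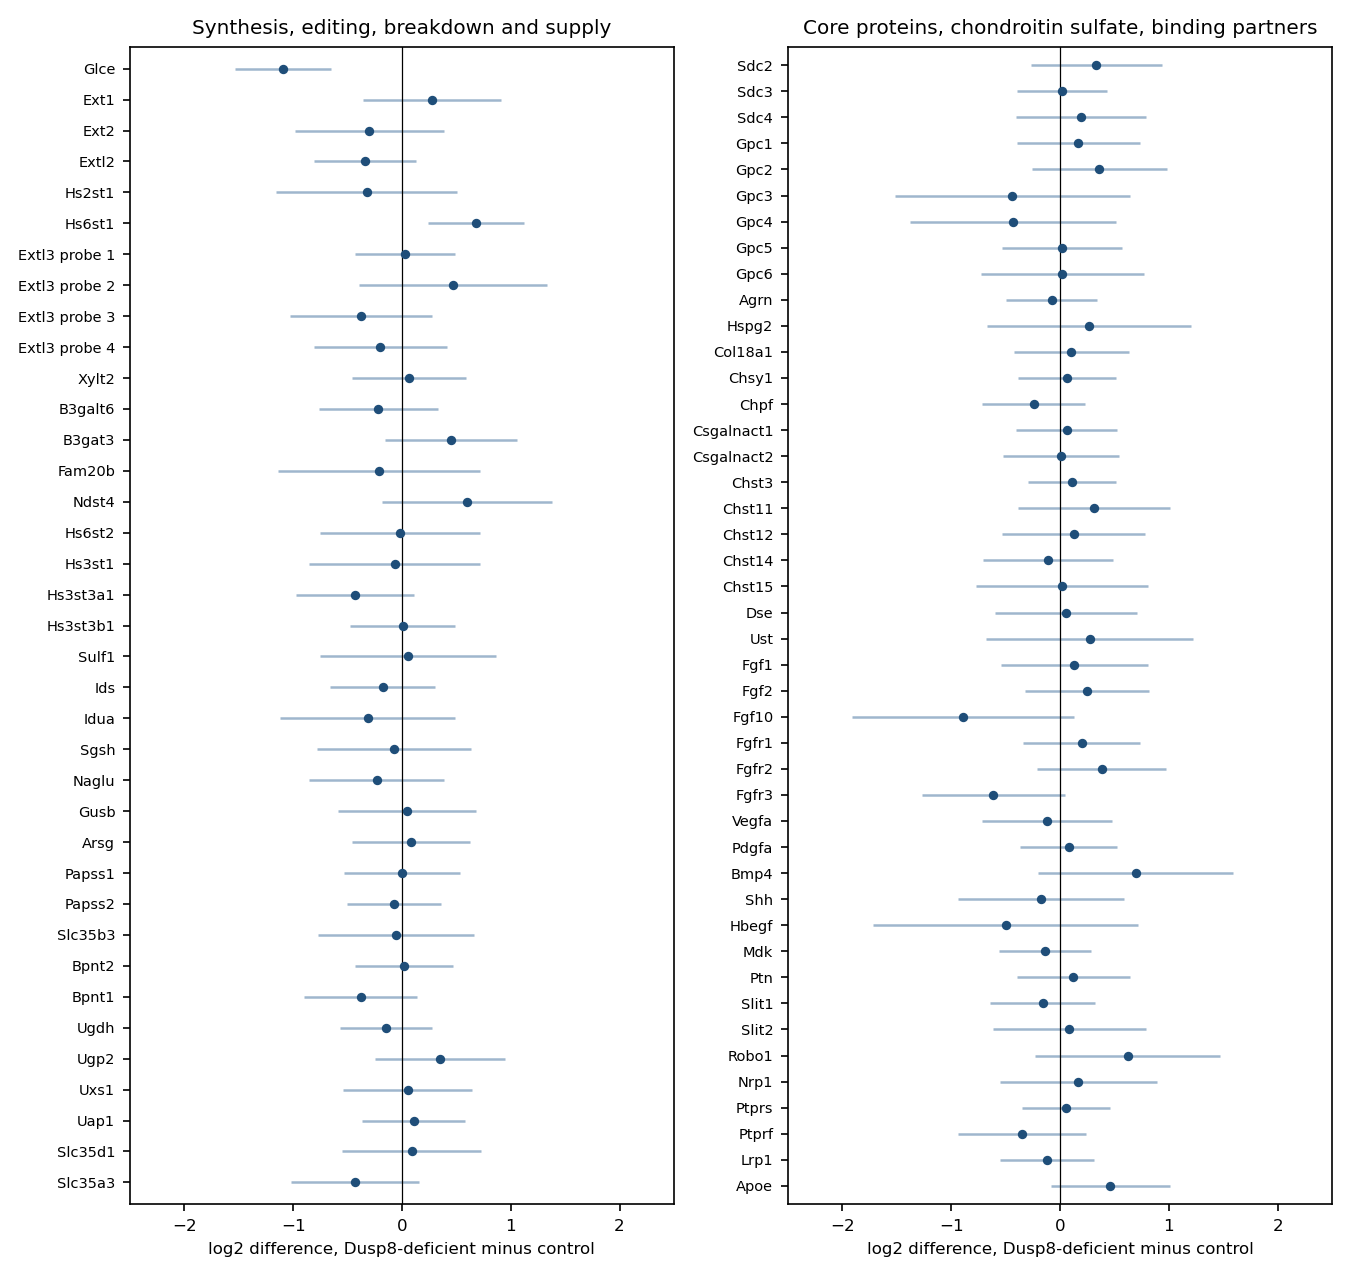
Log2 difference (Dusp8-deficient minus control, points) with its 95% interval (bars) for the 10 tested member probes and for 71 further genes of the pathway on their brightest probe. Glce, at -1.09, was chosen for its difference. Of the other probes shown, the interval of Hs6st1 leaves out 0 and the rest include it. That of Chst3 rests on controls not above background.

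Chondroitin and dermatan sulfate are sister chains built on the same stem, and Dse is the epimerase that makes iduronic acid there, as Glce does in heparan sulfate. Dse read 26 to 55 units in Dusp8-deficient mice and 15 to 48 in controls, with overlapping groups. Of the 11 tested genes of these chains, 9 were higher and 2 lower, with a median of 0.06 log2 units. The 9 include Chst3, at 5 to 8 units against 4 to 6 in the controls. It was detected in 3 Dusp8-deficient arrays and in no control, so it was tested only through the group where it was higher. With dim arrays raised to the lowest detected level, its Dusp8-deficient mean was 1.003-fold higher. Chpf, a part of the chondroitin polymerase, read -0.24 (SE 0.21), and -0.15 without ko_125. Chst11, a sulfotransferase, read 0.31 (SE 0.31), and -0.06 without wt_177.

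Ligands and receptors that bind heparan sulfate were higher in 12 and lower in 9 of 21 tested cases. Fgf10, a growth factor made by tanycytes of the hypothalamus, read 24 units in ko_108, 75 in ko_125, 183 in ko_148 and 147 in ko_168, against 177, 213 and 117 in the controls. Its difference was -0.89 log2 units (SE 0.46, 95% interval -1.91 to 0.13), and -0.50 without ko_108. Dimmer probes of Fgf10 read -0.90 (SE 0.33, 95% interval -1.64 to -0.16) and -0.23 (SE 0.33). Fgfr3, a receptor of this family, had a value of -0.61 (SE 0.29), with detection on 2 of the 4 arrays of Dusp8-deficient mice. Bmp4, detected in 1 of 3 controls, read 0.69 (SE 0.40), Robo1, a Slit receptor, 0.62 (SE 0.38) and Apoe 0.46 (SE 0.25). Fgfr3 was -0.36 without wt_177. Bmp4 lay between 0.38 without ko_125 and 1.02 without ko_168, and Robo1 was 0.33 without ko_108, 0.38 without wt_177 and 0.95 without wt_136. Ptprs, a receptor for both chains on neurons, read 1939 to 2831 units against 2238 to 2359.

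Genes that lie beside Glce on chromosome 9 gave no common direction. Of the 10 nearest tested genes, 5 on each side, 5 were higher and 5 lower, with a median of 0.07 log2 units. None passed (limma, over all tested probes), none had an unadjusted p below 0.05 and none had groups that lay apart. Rplp1, a ribosomal protein gene and the nearest tested gene on one side, read -0.24 (SE 0.20), and -0.14 without ko_125. Coro2b had the lowest value at -0.54 (SE 0.27), with a dimmer probe at -0.18, and was -0.34 without wt_177. The probe of Itga11 was not above background in any control, and it read 1 unit in ko_108, below the 3 to 6 units of the controls. Its difference was 0.58 log2 units (SE 0.28), and its groups overlapped. With dim arrays raised to the lowest detected level, the mean of the Dusp8-deficient group was 1.38-fold higher. That bound takes no account of the spread between arrays, so a higher level in the Dusp8-deficient group is not settled.

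**Figure D4:**
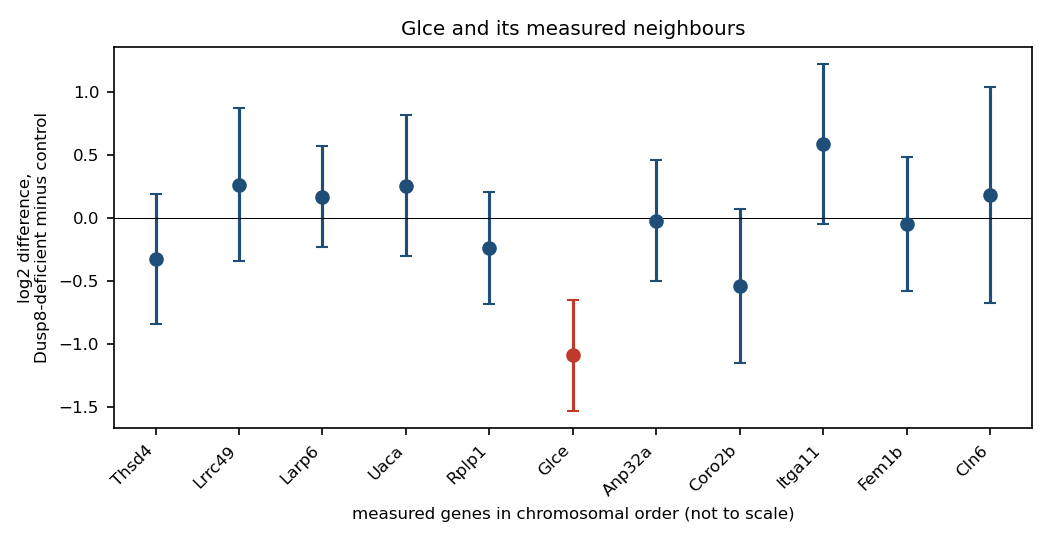
Log2 difference (Dusp8-deficient minus control) with its 95% interval for Glce (red) and the 5 nearest tested genes on each side (blue), in chromosomal order with even spacing. Glce, chosen for this difference, is drawn to mark its place, and each of the 10 neighbours has an interval that includes 0. That of Itga11 rests on controls not above background.

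Over the 7 arrays, the named probes whose pattern was most like that of Glce by Pearson's r belonged to Rgp1 (0.97), Vmn1r69 (0.97), Lst1 (0.97), Rmnd5a (0.97) and Asb7 (0.96). The most opposed were Rab31 (-0.99), Luzp2 (-0.97) and Tbcb (-0.95). Rgp1, a subunit of a Rab exchange factor at the Golgi, read -0.95 log2 units (SE 0.20), while Rab31, a small GTPase of vesicle traffic, read 0.53 (SE 0.18) and Luzp2 0.77 (SE 0.21). These likenesses describe 7 points that share the split into groups for which Glce was chosen. The Dusp8-deficient means of Vmn1r69 (4.33) and Lst1 (4.31) lay below the lowest detected log2 level of every array, 4.47 to 4.60. Those of Rgp1 (4.64) and Asb7 (4.66) lay just above it, so these patterns rest on signals near background. Among 14067 tested probes 37 reached an r of 0.9 or more and 27 one of -0.9 or less. With each group's mean taken away, the highest values belonged to Specc1l (0.99), Lrrc1 (0.99), Bend5 (0.99), Mustn1 (0.98) and Plod3 (0.98), and no gene stood among both sets of 5. These values rest largely on the spread of Glce among the 3 controls.

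Among the members, the r with Glce over the 7 arrays was -0.92 for Hs6st1 and 0.76 for Extl2. With each group's mean taken away it was -0.31 and 0.54. For Ext2 the value went from 0.21 to -0.54, and for Hs2st1 from 0.29 to 0.00. The r of Glce with Hs6st1 was thus smaller in size within the groups than over all arrays. Within groups, Glce varied mostly among the 3 controls (SD 0.26, against 0.06 in the Dusp8-deficient arrays), with wt_177 the lowest. The within-group values therefore rest largely on those controls.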

How the data were processed

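RNA of each arcuate sample was amplified and labelled with biotin for an Illumina bead array, per the labels' protocols, which speak of biological replicates. The intensities analysed are those the authors deposited as non-normalised, per the file headers. They are whole numbers that go below 0, so a background had been subtracted, and no source used here says how. Detection p-values, 1 for each intensity, were also deposited, per the file headers. The columns carry a genotype and a number but no replicate number, and each array was 1 replicate of its group. Processed intensities that the authors deposited, with a median of 21 in each column, served as an alternative. Their direction follows from a rank correlation of at least 0.9996 with a column of the same group. A rank correlation does not show the scale. The values were taken as linear before log2, and the constant that lifts them above 0 is unknown.

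The function neqc (limma 3.58.1, R 4.3.3) corrected the background, added an offset of 16, normalised by quantiles and took log2. Probes with a detection p below 0.05 in at least 3 of 7 arrays were kept (14067 of 25697). limma's lmFit and eBayes gave the difference, Dusp8-deficient minus control, two-sided, with Benjamini-Hochberg adjustment over all 14067 probes. Exact permutation tests used 35 regroupings. The brightest tested probe stood for a gene. Where no array of a group detected a probe, its fold is a bound, which sets each dim array at its own value or at the lowest detected level, whichever is higher. Only the limma fit and its adjustment were tested on simulated data, drawn as independent normal values around normalised levels of the kept probes. The background correction, normalisation, filter, permutation tests and bound were not tested in this way. The number of arrays limits the precision.

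Members, lists and tests were chosen with earlier results of these data known. Genes named were the members, Dusp8, genes of the pathway lists, the 5 probes most and 3 least like Glce, the 5 most like it within groups, and 5 measured genes on each side of it. In the annotation 23978 probes had a gene and 1719 were unnamed here.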

Additional observations from a re-analysis of the deposited data

Results flagged for a closer look

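By Dixon's criterion, 1 of the 4 arrays from Dusp8-deficient mice was remote from the rest for 4 of the 43 probes examined. Chance alone marks about 1 in 20 groups, or 2.15 here. The 3 control arrays were too few to be examined.

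Extl2 was at 8.56 log2 units in ko_148, and at 8.03 to 8.05 in the remaining Dusp8-deficient mice, or 399 units of signal against 208 to 263. Ext1 was at 5.81 in ko_168 and 4.92 to 5.01 in the rest, or 36 units against 12 to 22. Ndst4 was at 6.26 in ko_108 and 4.89 to 5.06 in the rest. Luzp2 was also highest in ko_108 after normalisation, at 8.84 against 8.57 to 8.59, although its signal before normalisation was lowest there, at 367 units against 387 to 408.

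Outside the tested probes, the second Hs6st1 probe, ILMN_3079255, was detected in 2 of the 4 Dusp8-deficient arrays and in 0 of the 3 controls. Its signals of 3 to 8 and 3 to 5 units overlapped.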

How the results depend on the processing

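The groups of Glce and of Hs6st1 also lay apart with no further background correction, an offset of 50, cyclic loess, median scaling and the authors' processed values. The other settings leave the values of the arrays as they are or drop some arrays, and could hardly change this. The Glce difference of -1.09 log2 units moved to -0.88 with no further background correction and to -0.68 with an offset of 50, and ran from -1.25 to -1.004 with 1 array left out. No list gene was called under any setting. The call of Dusp8 was lost, leaving 0 calls, without the filter (-2.52, adjusted p = 0.141) and on the processed values of replicates 1 to 3 (-2.60, adjusted p = 0.0899). With 1 array left out the count of calls was 0 to 1 and the Dusp8 difference -2.65 to -2.402, with the call lost without ko_148, ko_168, wt_136, wt_145 or wt_177. Without the filter more probes share the adjustment, and in the other fits fewer arrays enter. The cause was not tested otherwise.

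Same-numbered samples of the 2 groups had correlations of -0.06, 0.08 and -0.02, and only the samples numbered 2 correlated best with each other, so the numbers were not taken to pair the samples. With the number as a replicate block, again on replicates 1 to 3 of the processed values, Dusp8 read -2.60 (adjusted p = 0.273) and 0 probes were called. Both fits on replicates 1 to 3, with and without the block, gave -0.060 for the brightest Extl3 probe, 0.18 for Fam20b, and medians of 0.069 for the linker list and -0.084 for UDP-sugar supply.

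Directions also turned for the brightest Extl3 probe with array weights (-0.022) and with 1 array left out (-0.059 to 0.13), for Fam20b (-0.47 to 0.18, turned without ko_168), for Gpc3 (-0.74 to 0.026, turned without ko_108) and for Chst11 (-0.062 to 0.62, turned without wt_177). With 1 array left out, list medians ran from -0.18 to 0.18 for the linker, -0.11 to 0.14 for UDP-sugar supply, -0.0065 to 0.22 for core proteins, -0.0051 to 0.14 for binding partners and -0.28 to 0.35 for editing (Sulf1 alone). Of the 5 probes most like Glce, 1 was still tested when detection on all 7 arrays was asked, and 3 to 5 had an r of 0.9 or more with 1 array left out, 3 without any 1 control. Dim signals or signals near background limit what can be read of Ext1, Ndst4, the brighter and the second Hs6st1 probe, Rgp1, Vmn1r69, Lst1 and Asb7.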
